A study of Mus musculus with 6 samples.

Results

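Long noncoding RNA (lncRNA) genes whose ends lie far from any protein-coding gene were examined for 2 marks of lysine 9 of histone H3, crotonylation (H3K9cr) and acetylation (H3K9ac), in P19 cells. A gene was taken when the GRCm38 annotation gives it the biotype lncRNA, it lies on an autosome, and both of its ends are more than 5 kb from every protein-coding gene end. The small nucleolar RNA host genes with a symbol starting in Snhg and the abundant or imprinted lncRNA genes Malat1, Neat1, Gas5, H19, Meg3 and Kcnq1ot1 were left out. Of 49943 genes on autosomes, X and Y, 12727 were lncRNA genes, and 8634 met the rule. The rule uses annotation alone and no measured value, though it was set with earlier results of these data known.

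The P19 line is a mouse embryonal carcinoma line, grown here in its proliferation medium with fetal bovine serum and with no differentiating treatment named in the labels. All groups share this line and this medium, and differ only in the antibody: 2 libraries for H3K9cr, 2 for H3K9ac, and 2 inputs, which were not analysed here. Chromatin was precipitated in its native state, and 1 antibody served each mark, so antibody and mark cannot be told apart. The design text calls the replicates biological, and p-values measure the spread between such replicates of 1 line.

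A lncRNA is a transcript with no long open reading frame that is capped, spliced and polyadenylated much as a messenger RNA is. Some lncRNAs act on chromatin or on neighbouring genes, some serve as precursors of microRNAs, and for many no function is known. Acetylation of lysine 9 of histone H3 neutralises the charge of the lysine and is a standard mark of active promoters and enhancers. Crotonylation of the same residue is a bulkier acylation, deposited by some of the same acyltransferases and read preferentially by YEATS domains, and it is also found at active promoters.

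Sequences around the annotated starts of several genes described further on show the range of promoters among them. RefSeq promoter windows of GRCm38.p6, from 250 bases before to 50 bases after the start, are printed 5′ to 3′ with every CpG dinucleotide in capitals. The first 5 belong to genes with peaks in all 4 libraries, the last to a gene with none. Tunar lies at chr12:105336344-105336643 on the plus strand, Lncenc1 at chr13:97434720-97435019 on the plus strand, and Gm51018 at chr3:127544839-127545138 on the plus strand. Oip5os1 lies at chr2:119594046-119594345 on the plus strand, Miat at chr5:112228899-112229198 on the minus strand, and Platr3 at chr2:135646273-135646572 on the plus strand.
Tunar: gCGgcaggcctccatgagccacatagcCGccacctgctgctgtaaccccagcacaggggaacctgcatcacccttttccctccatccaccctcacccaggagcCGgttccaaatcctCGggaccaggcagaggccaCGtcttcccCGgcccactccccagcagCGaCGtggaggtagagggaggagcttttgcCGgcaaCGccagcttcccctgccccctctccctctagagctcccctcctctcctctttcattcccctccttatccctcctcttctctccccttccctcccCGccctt
Lncenc1: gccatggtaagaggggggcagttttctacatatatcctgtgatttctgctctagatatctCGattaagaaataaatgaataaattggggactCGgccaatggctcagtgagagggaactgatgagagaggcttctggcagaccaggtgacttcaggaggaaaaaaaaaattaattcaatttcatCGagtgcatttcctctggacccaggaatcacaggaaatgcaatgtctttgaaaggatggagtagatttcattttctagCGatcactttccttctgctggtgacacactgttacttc
Gm51018: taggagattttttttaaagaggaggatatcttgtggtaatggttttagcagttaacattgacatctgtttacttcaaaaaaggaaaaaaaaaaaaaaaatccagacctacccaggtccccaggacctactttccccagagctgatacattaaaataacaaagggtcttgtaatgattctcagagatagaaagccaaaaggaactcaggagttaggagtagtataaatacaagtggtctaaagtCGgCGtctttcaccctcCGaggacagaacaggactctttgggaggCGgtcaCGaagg
Oip5os1: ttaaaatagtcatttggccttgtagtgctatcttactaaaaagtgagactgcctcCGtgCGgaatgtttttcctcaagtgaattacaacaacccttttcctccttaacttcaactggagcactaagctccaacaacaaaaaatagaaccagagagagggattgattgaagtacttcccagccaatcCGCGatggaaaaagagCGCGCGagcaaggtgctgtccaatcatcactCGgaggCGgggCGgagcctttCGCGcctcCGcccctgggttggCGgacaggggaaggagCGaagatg
Miat: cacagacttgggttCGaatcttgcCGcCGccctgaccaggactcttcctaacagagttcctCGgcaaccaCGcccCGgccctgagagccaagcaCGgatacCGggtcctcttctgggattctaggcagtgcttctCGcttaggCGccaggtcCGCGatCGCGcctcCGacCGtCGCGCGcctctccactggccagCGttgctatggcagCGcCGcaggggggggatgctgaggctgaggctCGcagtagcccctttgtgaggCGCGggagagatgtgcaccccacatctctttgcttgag
Platr3: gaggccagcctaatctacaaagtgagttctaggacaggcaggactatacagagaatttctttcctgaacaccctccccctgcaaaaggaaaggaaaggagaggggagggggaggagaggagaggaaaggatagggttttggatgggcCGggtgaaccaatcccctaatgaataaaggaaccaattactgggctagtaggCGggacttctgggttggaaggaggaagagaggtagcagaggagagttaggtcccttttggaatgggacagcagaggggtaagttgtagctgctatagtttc
The windows of Miat and Oip5os1 hold 25 and 15 CpGs, and their observed over expected CpG ratios are 0.807 and 0.801. The windows of Tunar, Gm51018 and Lncenc1 hold 11, 5 and 4 CpGs, with ratios of 0.421, 0.416 and 0.304. The window of Platr3 holds 2, with a ratio of 0.120. These examples are not a clean split by CpG: the window of Mir99ahg, also without a peak at an end, holds 8, with a ratio of 0.372.

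Most of the far lncRNA genes had no listed peak of either mark at an end. A peak lay within 1 kb of an end of 1096 genes (12.7%, Wilson 95% interval 12.0 to 13.4) in H3K9cr replicate 1 and of 1126 genes (13.04%, 12.3 to 13.8) in H3K9cr replicate 2. It did so for 977 genes (11.3%, 10.7 to 12.0) in H3K9ac replicate 1 and 1081 genes (12.5%, 11.8 to 13.2) in H3K9ac replicate 2. The backgrounds over all genes of the table were 36.5%, 36.7%, 35.7% and 36.5% in the same order of libraries, which is kept throughout. The shares of far lncRNA genes were thus well under these backgrounds in every library. The intervals cover counting error over genes only.

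Of the 1235 genes with a peak in any library, 1074 (87%) had a peak of each mark in at least 1 library and 161 had peaks of 1 mark only. In all 4 libraries, 915 genes (10.6%) had a peak at an end, against a background of 35.1% of all genes. No library had a peak at 7399 genes (85.7%). The remaining 320 genes had a peak in some libraries: 128 in 1, 84 in 2 and 108 in 3. Of 21887 protein-coding genes, 13462 had a peak in all 4 libraries and 7863 in none. Coding genes with a peak thus had it in all 4 libraries more often than far lncRNA genes with a peak. The most frequent partial pattern, with 74 genes, had a peak in every library but H3K9ac replicate 1, which also has the shortest list.

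The mean share was 12.9% ± 0.246 (SD, n = 2) for H3K9cr and 11.9% ± 0.852 (SD, n = 2) for H3K9ac. The difference of 0.95 percentage points gave p = 0.333 in an exact two-sided permutation test, the smallest that 2 libraries against 2 allow. The lists of the libraries held 28360, 28345, 26096 and 27474 peaks, and cutting them to 26096 each left a difference of 0.278 points (exact permutation p = 0.667). Without H3K9ac replicate 1 the difference was 0.347 points, and without H3K9ac replicate 2 it was 1.55 points.

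Other gene classes frame these shares. Of protein-coding genes, 63.0%, 63.2%, 62.2% and 63.0% had a peak at an end, and 61.5% had one in all 4 libraries. Of the 3774 autosomal lncRNA genes outside the rule, nearly all of them close to coding ends, 55.5% had peaks in all 4 libraries. Of 7591 autosomal pseudogenes more than 5 kb from coding ends, 1.0% did. Within a library the share of far lncRNA genes was lower than that of coding genes by a mean of 50.5 points, a difference of -50.5 ± 0.293 (SD, n = 4 libraries). An exact two-sided sign-flip test over libraries gave p = 0.125, the smallest it allows with 4.

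**Figure D1:**
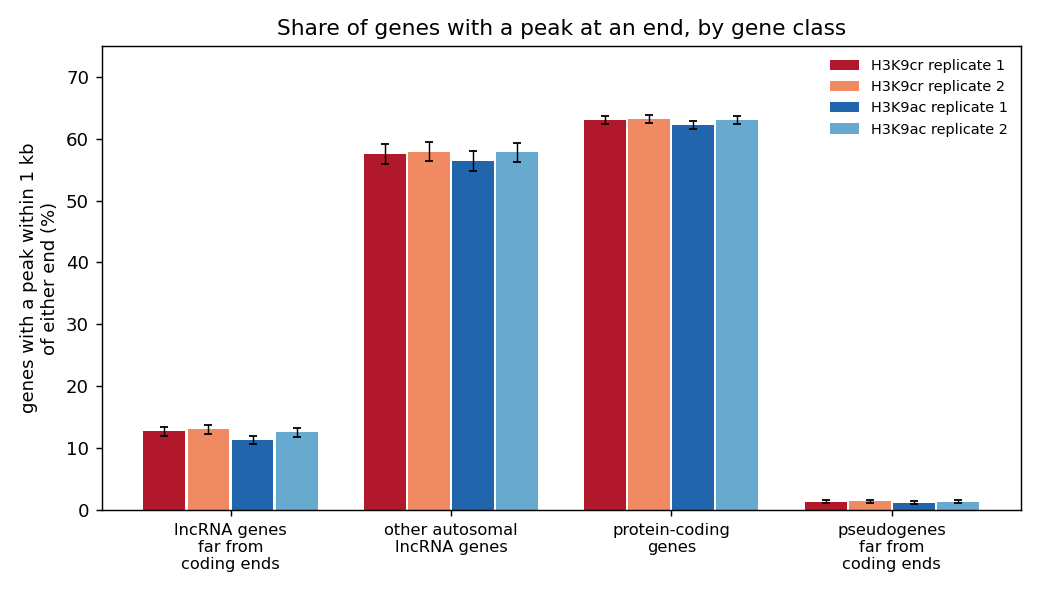
Bars give the share of genes, in percent, with a peak within 1 kb of either end, for 4 gene classes and 4 libraries, and error bars are Wilson 95% intervals. Far lncRNA genes lie between 11.3% and 13.04%, well under protein-coding genes at 62.2% to 63.2% and above far pseudogenes, of which 1.0% have peaks in all 4 libraries.

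Occupied and unoccupied genes differed in where they lie. The share with both marks in all 4 libraries was 15.7% for genes 5 to 10 kb from the nearest coding end and 12.97% at 10 to 50 kb. It was 9.75% at 50 to 100 kb, 5.49% at 100 to 500 kb and 2.79% beyond 500 kb, where 8 of 287 genes had them. The median distance to a coding end was 26033 bp for the 915 occupied genes and 45727 bp for the 7399 without a peak. The gene record had a median length of 7165 bp in the occupied genes and 9170 bp in the others. By record length the share was not monotonic: it was 12.8% at 1 to 3 kb, 7.49% at 30 to 100 kb and 13.4% above 100 kb.

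Shares also differed by kind of symbol, without a test. Among the 7132 genes with a Gm symbol, 9.42% had both marks in all 4 libraries, among the 1082 with a Rik symbol 15.7%, and among the 420 others, named genes and other provisional symbols alike, 17.4%. Of 2363 genes overlapping the record of a coding gene, 12.1% had both marks, and of 6271 outside such records 10.0%. By chromosome the share ran from 6.14% on chromosome 14 to 16.8% on chromosome 17.

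Gene ends in the rule are those of the widest record, and a coding gene can have further transcript starts inside it, so neighbours of the far lncRNA ends were counted. RefSeq placed a start of a protein-coding transcript within 1 kb of an end of 94 genes, and 68 of them (72.3%) had both marks in all 4 libraries. Among the 8452 genes without such a start within 5 kb, 821 (9.71%) did. An end of a tRNA gene lay within 1 kb of 20 genes, of which 18 (90%) had both marks. Of the 716 genes with an end of another lncRNA gene within 1 kb, 115 (16.1%) had both marks. The share was 45.8% of 24 genes near a miRNA gene end, 31.3% of 16 near a snRNA gene end, 12% of 25 near a snoRNA gene end and 9.52% of 147 near a pseudogene end. Some occupied genes share their signal: the 1235 genes with a peak in any library stood at 1305 distinct regions, and 135 of them shared a region with another gene. Which transcript a mark belongs to was not tested at these places.

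The peaks at far lncRNA ends were intermediate in length and rank. The libraries had 1144, 1157, 1016 and 1128 such peaks, 4.03%, 4.08%, 3.89% and 4.11% of their lists. Their median length was 1030, 1028, 992.5 and 995 bp. Peaks at protein-coding ends had medians of 1831, 1880, 1690 and 1816 bp, and peaks at neither kind of end 700, 725, 668 and 701 bp. In every library the far lncRNA peaks were longer than the latter and shorter than the former.

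Summit pileup, the coverage at a peak's highest point, is scaled differently between lists, so each peak was given its percentile within its own list. The median percentile of peaks at far lncRNA ends was 41.8, 41.4, 39.5 and 39.9. At coding ends it was 72.3, 72.2, 69.8 and 71.7, and at neither kind of end 29.7, 29.6, 28.6 and 29.3. Far lncRNA peaks lay below coding peaks by a mean difference of -30.8 ± 0.664 percentile points (SD, n = 4 libraries) and above the rest by 11.3 ± 0.754. The corresponding length differences were -792.9 ± 66.96 bp and 312.9 ± 17.1 bp (SD, n = 4), and each of these 4 differences gave an exact sign-flip p = 0.125, the smallest possible. Percentiles of 75 and above held 10.8%, 10.5%, 9.74% and 9.40% of the far lncRNA peaks, and percentiles below 25 held 28.2%, 29.0%, 32.2% and 28.9%.

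**Figure D2:**
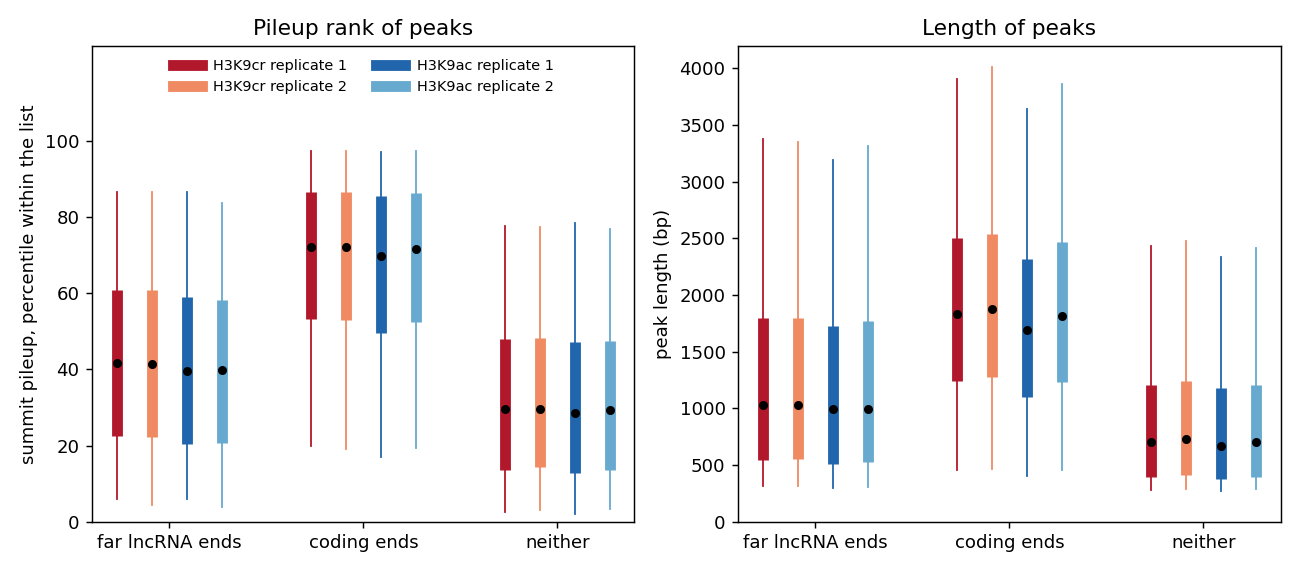
The left panel shows the percentile of summit pileup within its list and the right panel peak length in bp, for peaks at far lncRNA ends, at coding ends and at neither, in 4 libraries. Dots are medians, thick bars run from the 25th to the 75th percentile of the peaks and thin lines from the 5th to the 95th, and far lncRNA medians of 39.5 to 41.8 lie between those of the other kinds in every library.

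Genes with peaks in all libraries carried the stronger peaks. The grouping itself favours this, because a list holds only peaks past a threshold and a weak peak can miss it in some libraries. For the 915 genes the highest peak at an end had a median percentile of 49.5, 50.2, 43.9 and 47.4 and a median length of 1265, 1294, 1115 and 1230 bp. For genes with a peak in some libraries the medians were 11.7, 11.5, 7.12 and 12.0, and 402, 399, 340 and 392 bp. The order of the 915 genes by percentile was much alike in all libraries, with Spearman's rho across genes of 0.967 to 0.979 between pairs of libraries, within and between marks. For length rho was 0.912 to 0.947. These correlations describe genes of the same cells and share local sequence and background.

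Median peak length at far lncRNA ends was 1029 ± 1.41 bp (SD, n = 2) for H3K9cr and 993.75 ± 1.77 bp (SD, n = 2) for H3K9ac. The difference of 35.25 bp gave an exact permutation p = 0.333, the smallest possible. The median percentile was 41.6 ± 0.260 and 39.7 ± 0.313 (SD, n = 2 each), and the difference of 1.95 also gave an exact permutation p = 0.333. In both measures the groups did not overlap. At coding ends they did not overlap either, so this is not particular to far lncRNA ends. There H3K9cr had median lengths of 1831 and 1880 bp against 1690 and 1816 bp for H3K9ac. The median percentiles there were 72.3 and 72.2 against 69.8 and 71.7. For peaks at neither kind of end the lengths overlapped, and the percentiles, 29.7 and 29.6 against 28.6 and 29.3, did not. With equal numbers of peaks the length difference at far lncRNA ends was 107.75 bp and the percentile difference 1.09, each again at p = 0.333 by exact permutation. With a window of 2.5 kb the percentile difference was 0.893, and without coding transcript starts within 5 kb it was 1.02. The length difference was 58.25 bp in the latter, 59 bp with a window of 500 bp and 54.5 bp for genes over 10 kb from coding ends. Ranks in lists of unequal length cannot show whether the marks differ.

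Where a strand is known, the marks stood mainly at the start of the gene. RefSeq promoter entries gave the strand of 6448 of the 8634 genes. The 5′ end had a peak in all 4 libraries in 590 genes (9.15%) and the 3′ end in 222 (3.44%). Among the 5830 genes longer than 2 kb, 454 had such peaks at the 5′ end alone, 99 at the 3′ end alone and 49 at both. Of 17492 protein-coding genes with a strand, 59.6% had a peak in all libraries at the 5′ end and 8.58% at the 3′ end.

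Summits lay just inside the far lncRNA genes, but less uniformly than in coding genes. The highest peak at a 5′ end had its summit a median of 150.5, 139.5, 134 and 143 bp downstream of the annotated start, and 62.8%, 62.4%, 62.4% and 62.5% of summits were downstream. At coding genes the medians were 328, 335, 336 and 334 bp, and 80.5%, 80.1%, 80.9% and 80.8% of summits were downstream.

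**Figure D3:**
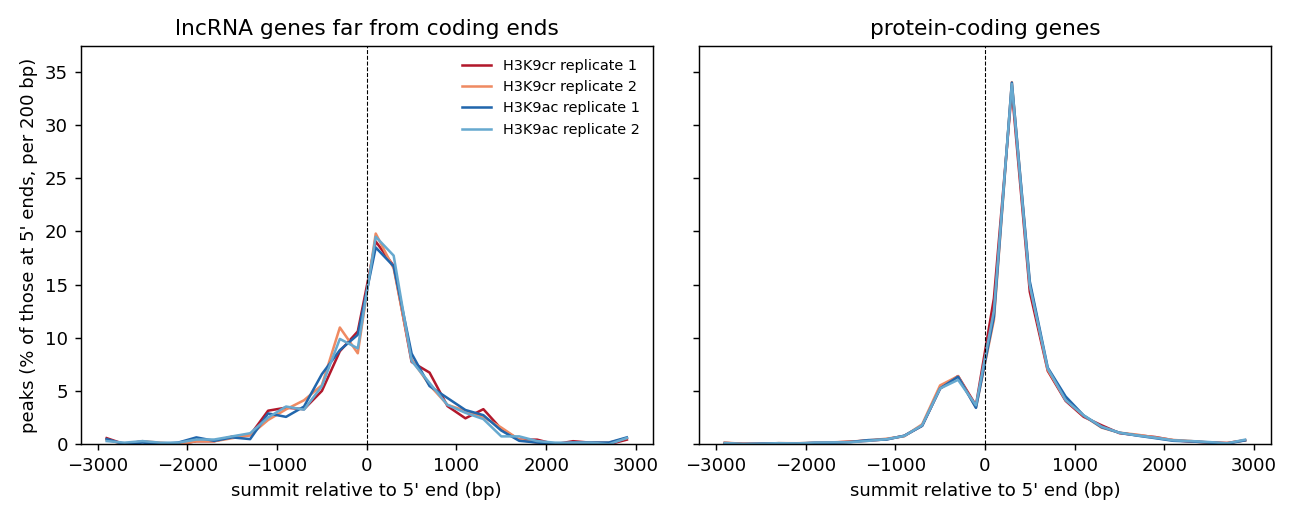
Lines give, for 4 libraries, the percent of peaks at 5′ ends whose summit falls in each 200 bp bin by distance from the annotated start, with positive distances inside the gene, for far lncRNA genes (left) and coding genes (right). Summits beyond 3 kb are counted in the outermost bins, and the lines peak inside the gene in both classes, higher and narrower for coding genes.

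A peak inside a gene without one at its ends was less common. Of the 7399 genes with no end peak, 331 (4.47%) had a summit within the record in all 4 libraries, and of the 5407 of them outside coding records 213 did. Over the whole class of 8634 genes, 947 (10.97%) had such a summit. No share over all genes stands beside these counts, so nothing particular to the class is read from them. Platr11, Rmst, Sox2ot, Mir99ahg and Mir217hg, described further on, were among the genes with such inner summits. The record of Sox2ot holds the coding gene Sox2, and summits of the Sox2 peaks lie inside it.

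Occupancy was higher at promoters richer in CpG. CpG-rich promoters, the CpG islands of vertebrate genomes, are usually unmethylated and are the common promoter type of broadly expressed genes. The observed over expected CpG ratio of the 300-base window was computed for the 6258 far lncRNA genes with a window at their 5′ end. The 5′ end had a peak in all 4 libraries in 3.44% of 2905 genes with a ratio under 0.2, 8.26% of 2253 at 0.2 to 0.4 and 16.9% of 751 at 0.4 to 0.6. It did in 35.2% of 244 genes at 0.6 to 0.8 and 66.7% of 105 genes above 0.8. At the 10583 coding genes with a window at their 5′ end, the same bins held 3.53%, 24.3%, 69.1%, 92.0% and 97.1%. For these windows the share was alike in the lowest bin and lower for far lncRNA genes in the other 4. Counted over all transcript starts with a window, the lowest bin held 3.81% for far lncRNA genes and 6.68% for coding genes. The likeness in that bin thus depends on which starts are counted.

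CpG-poor promoters made up most of the class, occupied genes included. The median ratio was 0.397 for the 569 windows of occupied 5′ ends, 0.201 for the 5517 with no peak in any library, and 0.766 for 5606 occupied coding 5′ ends. A ratio above 0.6 was found in 27.4% of occupied far lncRNA windows and 74.7% of occupied coding windows. Lncenc1, printed above with a ratio of 0.304, and Gm51018 with 0.416 are examples of occupied starts outside that range. Among the 569, the median percentile over libraries was 43.0, 44.7, 46.2, 60.1 and 70.1 from the lowest to the highest CpG bin, and the median length was 1048.5, 1111, 1138, 1577.75 and 2114.5 bp. Across these genes rho between CpG ratio and percentile was 0.287 to 0.319 in the 4 libraries. It describes genes that share base composition with the measured fragments.

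**Figure D4:**
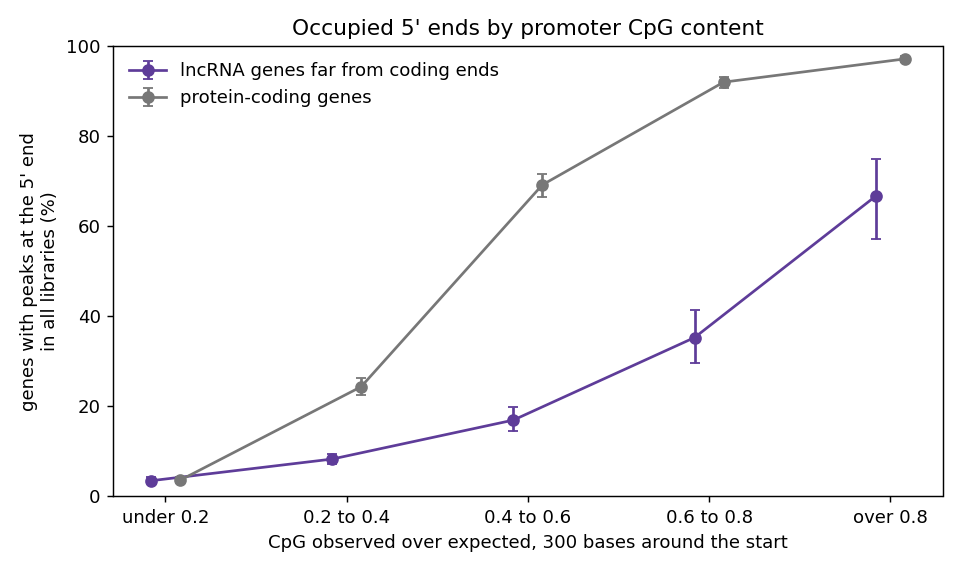
Points give the percent of genes with a peak at the 5′ end in all 4 libraries, by the observed over expected CpG ratio of the 300 bases around the start, with Wilson 95% intervals, for far lncRNA genes and coding genes. From the lowest to the highest bin the shares go from 3.44% to 66.7% and from 3.53% to 97.1%.

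Core promoter motifs were counted on both strands of the same windows. The GC box GGGCGG, the binding motif of Sp1, was in 35.0% of the occupied windows, 5.84% of those with no peak and 29.5% of all RefSeq windows at a gene's 5′ end. The TATA box TATAAA was in 10.0%, 18.6% and 16.3% of these, and the CCAAT box CCAAT in 32.2%, 36.6% and 38.2%. The ETS motif CCGGAAG was in 6.68%, 2.43% and 7.35%. The GC box holds a CpG, as does the ETS motif, so their counts move with CpG content. None of the 4 motifs contains another, though neighbouring matches can share letters.

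LncRNA genes linked with pluripotency were mostly without a peak, as was the whole class, where 85.7% had none. Of 20 such genes in the table, 13 fall in the class. Lncenc1, Platr22 and Tunar, 3 of the 13 (23.1%), had both marks in all 4 libraries. The backgrounds are 10.6% of the class and 35.1% of all genes, and nothing particular to so short a list is read from the count. Lncenc1 is a lncRNA of naive mouse embryonic stem cells and Tunar is a lncRNA needed for their self-renewal, while Platr genes were named as pluripotency-associated transcripts. Platr27 had peaks of 291 and 289 bp in H3K9cr replicate 1 and H3K9ac replicate 2, at percentiles 9.83 and 4.94. The 9 others, Platr3, Platr4, Platr5, Platr6, Platr7, Platr11, Platr14, Platr26 and Platr30, had none. For Platr30 the nearest peaks were 228 to 374 bp beyond the window.

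Lncenc1 (chr13:97434970-97497664, 181930 bp from the nearest coding end, that of Enc1) had percentiles of 68.1, 73.1, 58.6 and 62.4 and peaks of 2774, 2752, 2543 and 2709 bp. Platr22 had percentiles of 65.0, 71.8, 62.2 and 62.4, with peaks of 1307, 1942, 1055 and 1960 bp. Tunar (chr12:105336594-105383932) had 61.6, 61.9, 58.3 and 63.7, with peaks of 2075, 2106, 1668 and 2103 bp. In all 3 genes the peaks ranked in the upper part of every list. The coding genes Pou5f1, Sox2, Nanog, Utf1 and Lin28a, which mark undifferentiated cells, had peaks in all 4 libraries, and Alb and Hbb-bt of differentiated cells had none.

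Of 7 lncRNA genes in the class that are known from the nervous system, Miat, Oip5os1, Pantr2 and Paupar had peaks of both marks in all 4 libraries. The backgrounds are 10.6% of the class and 35.1% of all genes, and nothing particular to so short a list is read from the count. Oip5os1, also called Cyrano and known for its part in the decay of the microRNA miR-7, had percentiles of 92.3, 93.0, 92.2 and 94.2. Miat, a nuclear lncRNA of neural progenitors also called Gomafu, had 78.0, 77.1, 75 and 69.7. Paupar, which lies next to Pax6, had 55.5, 56.1, 52.1 and 53.5 and peaks of 3421, 3521, 3715 and 3333 bp. Pantr2, next to Pou3f3, had 46.9, 49.2, 40.8 and 37.3. Nkx2-2os lacked a peak in H3K9ac replicate 1 and had percentiles of 11.7, 10.1 and 8.50 in the others.

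Rmst, a lncRNA that binds the Sox2 protein in neural progenitors, and Sox2ot, which spans the Sox2 gene, had no peak within 1 kb of an end. The nearest peaks to Rmst were 188, 256, 726 and 829 bp beyond the window. Those to Sox2ot were 5089, 40, 5164 and 5074 bp beyond it. Both genes had summits inside their records in all libraries. In Sox2ot these include the summits of the highest peaks at the ends of Sox2, at 34648662 to 34653451.

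Host genes of microRNAs were taken by symbol and, separately, by the hairpins inside the record. Of 10 genes named as hosts, Mir100hg, Mir124-2hg, Mir124a-1hg, Mir17hg, Mir1a-1hg and Mir9-3hg had both marks in all 4 libraries, and Mir133a-1hg, Mir205hg, Mir217hg and Mir99ahg had none, beside 10.6% with both marks in the class and 35.1% of all genes. In 5 of the 10, Mir124-2hg, Mir124a-1hg, Mir1a-1hg, Mir133a-1hg and Mir99ahg, no RefSeq hairpin of the table lay inside the record. Mir124-2hg and Mir124a-1hg, named for the neuronal microRNA miR-124, had percentiles of 74.4, 73.0, 70.0 and 72.7 and of 58.0, 60.0, 52.5 and 55.5. Mir124a-1hg had long peaks, of 5162, 5360, 4792 and 5272 bp. Mir17hg, whose record here begins within its microRNA cluster, had 63.5, 67.8, 61.1 and 64.9. Mir100hg ranked low, at 18.3, 25.7, 12.9 and 10.2.

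RefSeq placed 86 microRNA hairpins inside 55 of the 8634 genes, and 15 of these 55 (27.3%) had both marks in all 4 libraries while 39 had none. The share lay above the 10.6% of the class and below the 35.1% of all genes, with no test. Of 88 pairs of hairpin and gene, 57 were on the same strand, 18 on opposite strands, and for 13 the strand of the gene is not known. The genes named in the rest of this paragraph were chosen after their values were seen. Gm51018 (chr3:127545089-127546903), inside the record of Larp7, holds the hairpins of the miR-302 cluster, which is characteristic of pluripotent cells. Its percentiles were 53.5, 55.3, 47.6 and 48.4 and its peaks 1744, 1800, 1563 and 1649 bp long. The 3 genes that hold the miR-9 hairpins, of a neural microRNA, all had both marks. Gm3764 had percentiles of 22.5, 17.98, 16.9 and 13.6, C130071C03Rik had 41.3, 32.6, 31.8 and 35.7, and Mir9-3hg had 44.1, 44.5, 40.8 and 49.3. The peaks that gave the values of Mir9-3hg lay beyond its 3′ end at 79534403, with summits at 79536033 to 79536107. Mirc35hg, with miR-182, miR-96 and miR-183 of sensory organs, had 70.8, 73.2, 68.0 and 70.0.

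Mature microRNAs of the cluster within Gm51018 are shown because they name the product of an occupied far lncRNA gene. Capitals mark the seed, bases 2 to 8 from the 5′ end.
miR-302b-3p: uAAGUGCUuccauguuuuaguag
miR-302d-3p: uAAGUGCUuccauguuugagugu
miR-302c-3p: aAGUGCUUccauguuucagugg
miR-367-3p: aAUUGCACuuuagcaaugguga
The first 2 share the seed AAGUGCU, and miR-302c-3p begins a base later in RefSeq, with the seed AGUGCUU. The seed of miR-367-3p is AUUGCAC.

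Of 8 lncRNA genes of mesoderm, Hox clusters and heart in the table, 6 fall outside the class, and the other 2, Bvht and Hotair, had both marks in all 4 libraries. The shares of the class and of all genes are 10.6% and 35.1%, and 2 genes allow no comparison with them. Bvht, also called Braveheart and known from cardiac commitment, had percentiles of 71.7, 73.5, 68.4 and 72.5. Hotair, in the HoxC cluster 5453 bp from the end of Hoxc12, had 31.3, 28.1, 22.0 and 34.4, with peaks of 800, 789, 944 and 760 bp.

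**Figure D5:**
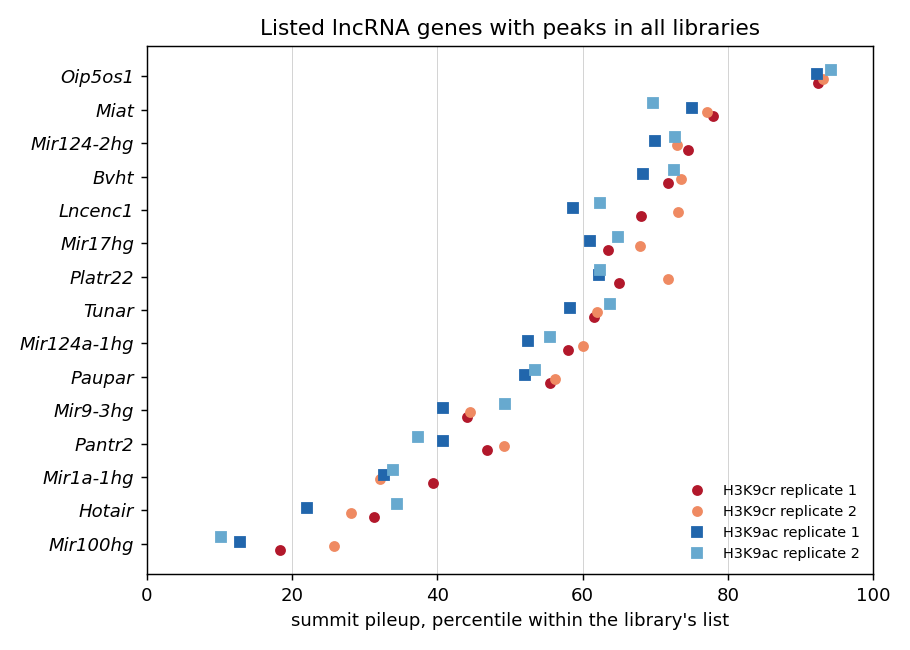
Each point is the percentile of the highest summit pileup at an end of a gene within its library's list, for the listed lncRNA genes with peaks in all 4 libraries, circles for H3K9cr and squares for H3K9ac. Oip5os1 lies at 92.2 or above in every library and Mir100hg at 25.7 or below.

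The strongest peaks at far lncRNA ends reached the top of the lists. By the lowest of its 4 percentiles, 1700052K11Rik came first, at 99.7, 99.6, 99.7 and 99.6, with summit pileups of 622.62, 657.02, 460 and 730.2 on the authors' scale. It lies inside the record of the coding gene Tlk2. C330008A17Rik and Gm36416 followed, and both touch the same peak, of 4054, 4207, 4074 and 3991 bp. Gm11205, Gm20652, Gm51701, Gm41693, 4930456A14Rik, Gm52631 and 1700028E10Rik made up the 10. Of these, 5 overlap a coding record, and 4 (1700052K11Rik, Gm20652, 4930456A14Rik and Gm52631) have a coding transcript start within 5 kb. Gm51701, in no coding record and 33420 bp from the nearest coding end, had 99.5, 99.5, 99.3 and 98.4.

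Ordered by the longest peak in the library where it is shortest, Gm31365, inside the record of Tnrc18, came first, with 11939, 11839, 11809 and 11671 bp in the 4 libraries. Its summits, at 142821188 to 142821193, lay beyond the gene's end at 142815992. In every library the peak ran farther past that end than the 7676 bp to the nearest coding end, that of Tnrc18. Gm35196 had 7698, 7833, 7865 and 7887 bp at percentiles of only 67.2 to 69.4. 2810410L24Rik, Gm26698 and Gm40833 completed the 5, with 6380 to 7854 bp. None of these 5 was among the 10 with the highest percentiles. Gm20652, among the 10, had peaks of 10081, 9939 and 9764 bp in 3 libraries, and 5832 bp in H3K9cr replicate 1 kept it out of the 5. Gm11465 and 1810021M19Rik share the longest single peak, of 14190 bp in H3K9cr replicate 1, and 5674 bp in H3K9ac replicate 2 kept them out. The order therefore depends on using the shortest of the 4 values.

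Some known lncRNA genes outside the lists are given as examples, chosen after their values were seen. Dancr, a lncRNA that holds back differentiation of progenitor cells, had percentiles of 96.1, 94.9, 95 and 95.9. Trp53cor1, the p53 target lincRNA-p21 next to Cdkn1a, had 81.4, 82.6, 78.6 and 77.0. Lncpint, another p53-linked lncRNA, had 70.8, 71.1, 68.6 and 70.4. Norad, which binds Pumilio proteins, had 34.4, 37.7, 24.8 and 38.7, and Pvt1, downstream of Myc, had 39.3, 44.9, 35.5 and 39.2. Airn, the imprinted antisense lncRNA of the Igf2r locus, had 50.8, 52.6, 50.5 and 49.0. Dnm3os, Ipw, Morrbid, Nron and Tincr had no peak at an end in any library.

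Genes with a single mark were few and their peaks small. H3K9cr alone, with peaks in both of its libraries and in neither H3K9ac library, was found at 29 far lncRNA genes (0.336%), against 0.22% of all genes and 0.215% of protein-coding genes. H3K9ac alone was found at 4 (0.0463%), against 0.036% of all genes and 0.0503% of protein-coding genes. The shares lay near the backgrounds, but they count genes with and without peaks alike. No library had a peak at 85.7% of far lncRNA genes and at 35.9% of protein-coding genes. Among genes with a peak, those with a single mark were thus a larger part of the far lncRNA genes than of the coding genes. The median fold enrichment over local background, the authors' value, was 4.48 and 4.75 in the H3K9cr libraries for the 29, and 4.72 and 4.74 in the H3K9ac libraries for the 4, where genes with both marks had 15.1 to 19.8. The highest value was 9.22.

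Among the H3K9cr-alone genes, Gm35850 had peaks of 915 and 1084 bp at percentiles 16.8 and 17.98, and Gm33588 had peaks of 291 and 379 bp at 19.8 and 27.3. Gm39592, 8469 bp from the end of the germ cell and pluripotency gene Prdm14, had percentiles of 5.85 and 14.2. Gm51971 and Gm41404 completed the 5 with the highest fold enrichment. The 4 genes with H3K9ac alone were Gm51795, Gm46871, B230206L02Rik and Gm46925, at percentiles of 1.91 to 8.28. With lists of equal length the counts were 9 for H3K9cr and 6 for H3K9ac, so the larger number for H3K9cr was much reduced. Without H3K9cr replicate 1, H3K9cr replicate 2 and H3K9ac replicate 2 in turn, H3K9cr alone was found at 80, 66 and 103 genes. H3K9ac alone was found at 11, 18, 31 and 17 genes without each of the 4 libraries.

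The marks were then compared gene by gene with limma over all 17547 genes with a peak at an end in every library, the 915 far lncRNA genes among them, with Benjamini-Hochberg adjustment over all of them. For the base pairs covered by peaks within 2.5 kb of the end, 0 genes passed an adjusted p of 0.05 in either direction (background 0% each way), and the smallest adjusted p was 0.671. At an unadjusted p under 0.05 limma had 877 of all genes (5%) and 58 of the 915 (6.34%). Median covered length at the 915 was 1385, 1391, 1210 and 1343 bp, and over all genes tested 2084, 2123, 1953 and 2062 bp. Replicate 1 of H3K9ac was the lowest in both.

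For the rank of summit pileup, written as a normal score, 8 genes (0.0456%) were higher in H3K9cr and 1 (0.0057%) higher in H3K9ac at an adjusted p of 0.05 by limma. Gm41418 was the single far lncRNA gene among them. It lies 277336 bp from the nearest coding end, that of Grin2a, and had percentiles of 28.8, 37.2, 3.78 and 6.71 and peaks of 1243, 1156, 290 and 350 bp. Both H3K9cr libraries were above both H3K9ac libraries, and the score differed by 1.19 (SE 0.118, n = 2 against 2, limma adjusted p = 0.0474). With ranks by the authors' fold enrichment limma called 0 genes, at an unadjusted p under 0.05 it had 212, and with peaks of a -log10 q-value of at least 10 it called 0 of the far lncRNA genes. Single libraries decide how many genes pass: without each of the 4 in turn limma called 36, 33, 78 and 534 genes, of which 5, 5, 16 and 106 were far lncRNA genes. With the lone library of a mark assumed to vary like the others, the highest counts came without H3K9ac replicate 2.

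The median score difference between marks was 0.10 at the 915 genes and 0.05 over all genes tested, with an unadjusted p under 0.05 at 174 (19.02%) and 1510 (8.61%). A percentile depends on which peaks its list holds, and the H3K9cr lists were longer. The cause of the difference was not tested. With equal numbers of peaks the medians were 0.03 and -0.0026, and 119 of 876 far lncRNA genes (13.6%) and 1329 of 17429 genes (7.63%) had an unadjusted p under 0.05. Without H3K9ac replicate 1 the medians were 0.06 and 0.02. Without H3K9ac replicate 2 they were 0.14 and 0.08, and 356 of 928 far lncRNA genes (38.4%) had an unadjusted p under 0.05.

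Genes close to the distance limit were of both kinds. Gm10451 and Gm52181, whose ends are 5005 and 5008 bp from a coding end and which were therefore taken, had no peak. Of the nearest genes left out, Ctcflos at 4996 bp had none, and Gm35762 at 4994 bp had peaks in all 4 libraries at percentiles of 76.8, 78.2, 70.3 and 73.2.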

How the data were processed

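Native chromatin immunoprecipitation followed by sequencing was done for H3K9cr and H3K9ac in P19 cells, and the labels gave the groups and the numbering of replicates. The submitters' processing notes name Bowtie2 2.4.1, MACS2 2.2.7.1 and the build GRCm38, without options. The authors deposited 1 peak list per library. Per the file headers, each row gives the position, length and summit of a peak, its pileup (the coverage signal at the summit), the -log10 p-value and -log10 q-value, and the fold enrichment, a ratio to local background. Read depth is not given in the sources used here. A list holds only peaks past a threshold, with a smallest -log10 q of 2.02 to 2.06, so where no peak is listed the mark was not measured as absent, and deeper libraries can list more and longer peaks.

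Gene records and promoter windows came from RefSeq tables of GRCm38.p6, the same build as the lists, and positions count from 1. The gene table has no strand, so strand came from the promoter table, which matched 6448 of 8634 genes. It has no windows for 2186, those of chromosome 18 included. A gene end was occupied when at least 1 bp of a peak lay within 1 kb of it. Of several peaks at a gene, the one with the highest pileup gave its percentile, and the longest one gave the length of a named gene's peak.

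For values with 1 number per library, marks were compared with an exact two-sided permutation test, and classes within libraries by an exact sign-flip. Covered length, centred on the library median, and normal scores of pileup ranks were fitted with limma (version 3.58.1, R version 4.3.3), and genes were called at adjusted p under 0.05. The limma steps were tested on simulated data. Other steps used Python 3.11.15 with numpy 2.4.6, pandas 2.3.3, scipy 1.17.1 and matplotlib 3.10.9.

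The genes, the lists of lncRNAs and the tests were chosen with earlier results of these data known. Genes were named by rule: members of the lncRNA lists, the 10 with the highest percentile in their weakest library, the 5 with the longest peak in theirs, up to 5 per mark alone by fold enrichment, those passing limma, and the 2 nearest the distance limit on each side. Other names are said to be chosen after their values were seen. Alternatives changed the window (500 bp and 2.5 kb), the -log10 q minimum (10), the distance limit (10 kb), the list length, the use of summits, overlaps with coding records, shared regions, nearby coding transcript starts, the rank measure, centring and the replicate block, and left out each library. Equal list lengths in the limma fits, ranks among the genes tested and the leaving out of genes near coding transcript starts were added after seeing the data.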

Additional observations from a re-analysis of the deposited data

How the results depend on the processing

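The difference between marks in the share of occupied far lncRNA genes, the difference from coding genes, the count with both marks in every library, and the differences in median length and percentile kept their direction under all alternatives run, and the count stayed within 1.5 times. The first ranged from 0.278 to 1.55 points, the second from -51.5 to -46.6 points, the third from 630 to 1180 genes, and the last 2 from 34 to 107.75 bp and from 0.893 to 2.17 percentile points. Genes with 1 mark alone depended on the settings. H3K9cr alone, at 29 genes, fell to 13 with a -log10 q of at least 10 and to 9 with equal numbers of peaks, and leaving out 1 library gave 42 to 103. H3K9ac alone, at 4 genes, was 2 with a 500 bp window, 1 with a -log10 q of at least 10, 12 with the summit in the window, 2 beyond 10 kb from coding ends and 2 outside coding records, and leaving out 1 library gave 11 to 31; with 1 library of a mark left out, a single library decides a call, which by construction raises these counts. For covered length limma called 0 genes under every alternative, the replicate block included. For pileup rank it called 9 genes and 1 far lncRNA gene. With the replicate block these were 24 and 7, with the 2.5 kb window 14 and 2, with a -log10 q of at least 10 there were 9 and 0, and with ranks by fold enrichment 0 and 0. Leaving out 1 library gave 33 to 534 genes and 5 to 106 far lncRNA genes, the highest counts without H3K9ac replicate 2, and without H3K9ac replicate 1 there were 78 and 16. The cause was not tested. The labels do not say that equal replicate numbers mark a shared batch, and the deviations of same-numbered libraries correlated at 0.14 for covered length and 0.03 for rank across genes. Peaks under the authors' threshold and the unknown read depth limit all shares and lengths.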
